A study of Mus musculus with 17 samples.

Results

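The 10 genes described here are *Sox9*, *Wt1*, *Gata4*, *Amh*, *Inhbb*, *Fshr*, *Clu*, *Cst12*, *Trf* and *Ctsl*, which are used as marker genes of Sertoli cells. They were taken by symbol from the deposited expression table, which lists 23282 genes, and all 10 were listed. Sertoli cells are the somatic cells of the seminiferous tubule that surround and nourish the germ cells, form the blood-testis barrier and respond to follicle-stimulating hormone. Their identity rests on transcription factors such as SOX9 and WT1, and they secrete carrier proteins, protease inhibitors and hormones into the tubule and the blood. Some of these genes, such as *Clu*, *Ctsl* and *Trf*, are made by other cell types as well.

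RNA-seq was performed on germ cells of 3 stages, sorted by FACS on Hoechst and propidium iodide: SPG are spermatogonia, PreL are pre-leptotene spermatocytes, and LZ are spermatocytes in leptotene or zygotene. The WT and the *Nat10*-SKO mice shared a C57BL/6 background (C57BL/6J in the study's methods), and the ages of the mice behind these libraries are not given in the sources used here. In SKO mice, the knock-in line Stra8-GFPCre excised the floxed exons 4 and 5 of *Nat10* in germ cells. Sertoli cells are not the cells in which the Cre is driven. However, the paper gives the SKO genotype as fl/- for *Nat10* with Stra8-Cre, a floxed and a null allele. The Sertoli cells of SKO mice may therefore carry the null allele, unlike those of WT mice. Each group of genotype and stage had 3 libraries, except WT LZ, which had 2. The labels do not say whether the replicates came from separate animals, so the p-values measure the spread between these libraries, which may be technical.

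The 17 libraries held from 5812380 to 13820953 recovered reads, with the fewest in SKO LZ. Levels are given as recovered reads scaled to a common library total (RPM, reads per 1000000). *Nat10*, the targeted gene, stood at 37.2, 30.2 and 37.1 RPM in WT SPG and at 14.7, 19.9 and 22.6 RPM in SKO SPG. It ranged from 23.1 to 36.4 RPM in WT PreL and from 10.1 to 15.0 RPM in SKO PreL, and from 28.1 to 28.6 RPM in WT LZ and from 6.83 to 8.81 RPM in SKO LZ. The SKO libraries lay below the WT libraries in each stage, and reads outside the excised exons are counted too. The germ cell list (*Ddx4*, *Dazl*, *Tex101* and *Mael*, of which *Dazl* held the most reads) summed to between 3045 and 5042 RPM in all libraries, against 234 to 2076 RPM for the Sertoli genes. A list of spermatid genes, of which *Tnp2* held the most reads, differed by genotype. It summed to 89.8 to 274, 535 to 902 and 530 to 916 RPM in WT SPG, PreL and LZ. In SKO, it summed to 0.101 to 1.01, 2.58 to 4.61 and 2.58 to 3.15 RPM. The part of this difference in cell make-up in the comparisons below was not tested. In bulk libraries, fewer cells of a type and less RNA per cell cannot be told apart.

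The summed level of the 10 genes was 254, 283 and 234 RPM in replicates 1, 2 and 3 of WT SPG and 373, 306 and 331 RPM in replicates 1, 3 and 4 of SKO SPG. In PreL, replicates 1, 2 and 4 of WT held 310, 290 and 281 RPM, and replicates 1, 2 and 3 of SKO held 1460, 1752 and 292 RPM. In LZ, replicates 2 and 3 of WT held 2076 and 523 RPM, and replicates 1, 2 and 3 of SKO held 904, 1290 and 981 RPM. Libraries of 1 group therefore differed widely in PreL and LZ: SKO PreL replicate 3 lay within the range of WT PreL, and WT LZ replicate 2 stood above all 16 other libraries. These 2 libraries stand apart from the rest of their groups. The counts of called Sertoli genes in most comparisons that use them are given with and without them. For most of these comparisons, the counts of further Sertoli genes and the shares of all genes are given as well.

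The group means, from low to high, were 257 ± 24.4 RPM in WT SPG (SD, n = 3), 294 ± 15.1 in WT PreL (n = 3), 337 ± 33.6 in SKO SPG (n = 3), 1058 ± 204 in SKO LZ (n = 3), 1168 ± 772 in SKO PreL (n = 3) and 1299 ± 1098 in WT LZ (n = 2). WT SPG and WT PreL overlapped, as did WT PreL and SKO SPG, and the 3 highest groups could not be ordered beyond their spread. Every library of SKO LZ and of WT LZ lay above every SPG and WT PreL library.

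**Figure D1:**
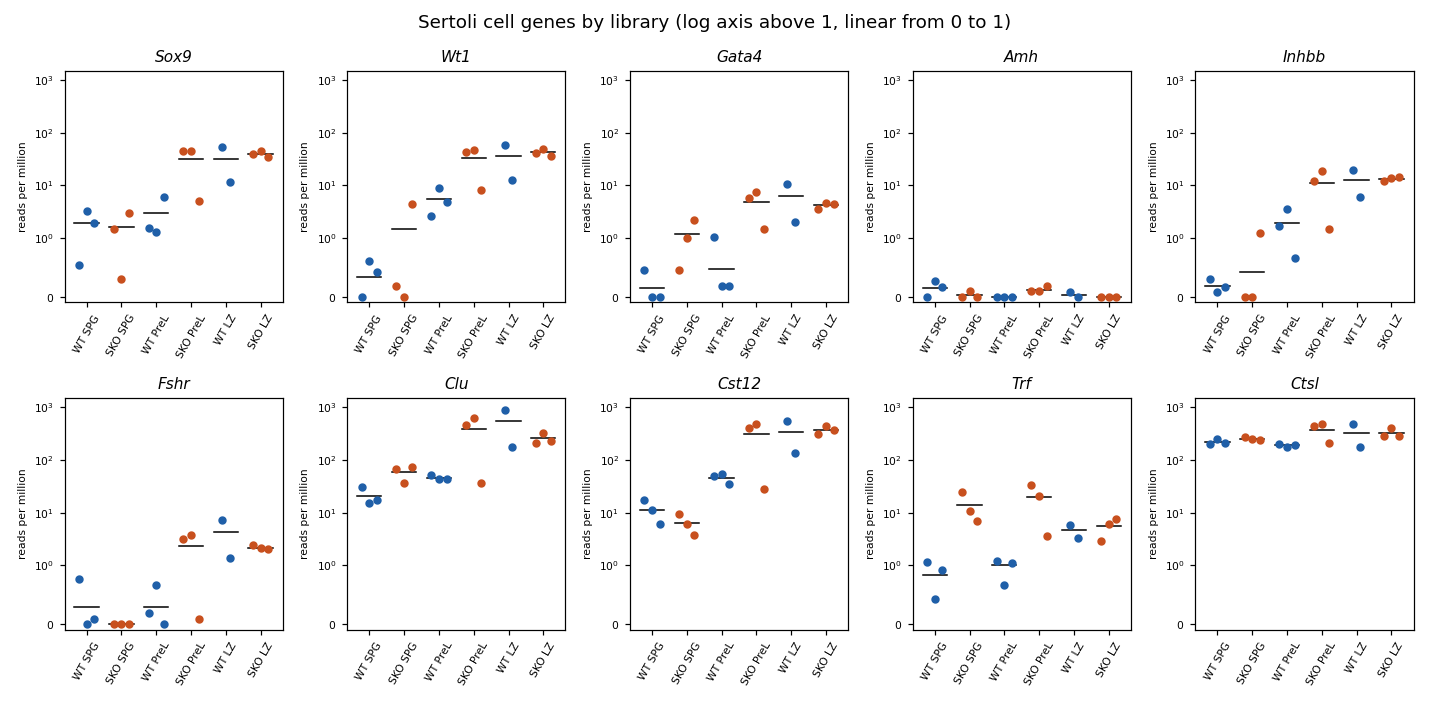
Level of each Sertoli gene in RPM (y axis, linear from 0 to 1 and logarithmic above 1) in the 17 libraries by group (x axis), with WT in blue and SKO in orange, 1 point a library and a black line at the group mean. SKO PreL replicate 3 sits far below its 2 partner libraries for *Sox9*, *Wt1*, *Clu* and *Cst12*, *Trf* is high in SKO SPG, and *Amh* lies near 0 throughout.

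Among the transcription factors, *Sox9* drives Sertoli cell differentiation (chromosome 11, 112782224 to 112787760, GRCm38). It was found at 0.537, 3.28 and 1.91 RPM in WT SPG and at 1.48, 0.303 and 3.02 RPM in SKO SPG. It stood at 1.59, 1.32 and 5.97 RPM in WT PreL and at 45.2, 45.5 and 4.97 RPM in SKO PreL. In LZ, it reached 52.5 and 11.5 RPM in WT and 39.6, 44.7 and 34.2 RPM in SKO. The genotypes overlapped in all 3 stages, in PreL because SKO replicate 3 lay below WT replicate 4.

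*Wt1*, a zinc finger factor that maintains the Sertoli lineage (chromosome 2, 105126529 to 105173616), had at most 7 reads in a WT SPG library and 2, 0 and 52 reads in SKO SPG. Its level was 2.61, 8.89 and 4.85 RPM in WT PreL and 42.9, 46.4 and 8.35 RPM in SKO PreL. In LZ, it was 58.2 and 12.8 RPM in WT and 41.8, 49.0 and 36.8 RPM in SKO. *Wt1* thus had the same order of libraries as *Sox9* in SKO PreL and in LZ, with the same 2 libraries standing apart.

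*Gata4*, a GATA factor of the somatic gonad (chromosome 14, 63198922 to 63271692), was low. It stood at 1.03, 0.189 and 0.186 RPM in WT PreL and at 5.88, 7.37 and 1.51 RPM in SKO PreL, with every SKO library above every WT library. In LZ, it was found at 10.7 and 2.05 RPM in WT and between 3.61 and 4.73 RPM in SKO, and in SPG its counts ran from 0 to 26 reads.

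Of the hormones and their receptor, *Amh* (anti-Müllerian hormone, chromosome 10, 80805243 to 80807648), which immature Sertoli cells secrete, had between 0 and 3 reads in every library. This is at or under the floor of 3 reads used here, and *Amh* was tested in no comparison. The floor covers counting error only, because PCR copies were not collapsed by molecular identifiers.

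*Inhbb*, which encodes the beta B subunit of inhibin and activin (chromosome 1, 119415465 to 119422248), stood at 1.68, 3.59 and 0.653 RPM in WT PreL and at 12.4, 19.1 and 1.51 RPM in SKO PreL. It reached 19.4 and 6.07 RPM in WT LZ and 11.9, 13.9 and 14.1 RPM in SKO LZ. In SPG it had at most 4 reads in a WT library and 0, 0 and 15 reads in SKO.

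*Fshr*, the receptor of follicle-stimulating hormone (chromosome 17, 88984952 to 89200675), had 10, 0 and 1 reads in WT SPG and 0 reads in all 3 SKO SPG libraries, where a count of 0 allows up to 3 reads. It stood at 3.21, 3.82 and 0.0888 RPM in SKO PreL, the last from 1 read, and between 0 and 0.662 RPM in WT PreL. In LZ, it was 7.38 and 1.39 RPM in WT and 2.41, 2.1 and 2.02 RPM in SKO.

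Among the secreted and lysosomal proteins, *Clu* (clusterin, a secreted chaperone, chromosome 14, 65968483 to 65981547) stood at 30.3, 15.4 and 17.3 RPM in WT SPG and at 66.3, 37.0 and 73.3 RPM in SKO SPG, without overlap. It was 50.8, 42.8 and 44.5 RPM in WT PreL and 470, 638 and 36.8 RPM in SKO PreL. In LZ, it was 905 and 174 RPM in WT and 211, 331 and 231 RPM in SKO. The third SKO PreL library was here the lowest of all 6 PreL libraries.

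*Cst12*, a gene of the cystatin family of protease inhibitors (chromosome 2, 148789361 to 148793546), stood at 17.0, 11.3 and 6.07 RPM in WT SPG and at 9.25, 6.17 and 3.69 RPM in SKO SPG, with overlap. It stood at 49.3, 55.3 and 34.8 RPM in WT PreL and at 403, 486 and 28.0 RPM in SKO PreL. In LZ, it was 539 and 138 RPM in WT and 309, 438 and 368 RPM in SKO. The same 2 libraries stood apart.

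*Trf* (transferrin, the iron carrier, chromosome 9, 103204001 to 103230444) took another course. It stood at 1.15, 0.431 and 0.914 RPM in WT SPG but at 24.8, 10.9 and 6.97 RPM in SKO SPG. It was 1.21, 0.662 and 1.12 RPM in WT PreL and 33.7, 21.0 and 3.55 RPM in SKO PreL. In LZ, it was 5.93 and 3.29 RPM in WT and 2.92, 6.18 and 7.51 RPM in SKO. *Trf* was thus as high in SKO SPG replicate 1, where *Sox9* had 16 reads, as in SKO PreL replicate 2, where *Sox9* had 513 reads. Exons of *Trf* overlap those of *Gm20425*, and the counting is not stated to use strand, so reads of the 2 genes cannot be told apart.

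*Ctsl* (cathepsin L, a lysosomal protease, chromosome 13, 64359337 to 64370890) varied least of the 9 genes above the floor. It ran from 204 to 252 RPM in WT SPG, from 236 to 270 RPM in SKO SPG and from 176 to 202 RPM in WT PreL. It was 442, 484 and 207 RPM in SKO PreL, 478 and 174 RPM in WT LZ, and 282, 400 and 283 RPM in SKO LZ. *Ctsl* held 40.0% of all reads of the 10 genes, and it made up most of the summed level wherever *Sox9* and *Wt1* were low. Its exons overlap those of *Gm47123* and *Gm49230*.

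Per length, as RPM per kilobase of exon, *Ctsl* had the highest group mean of the 10 genes in WT SPG with 34.1, ahead of *Cst12* with 17.5 and *Clu* with 6.10. In WT PreL, *Cst12* led with 70.9 RPM per kilobase, and in SKO PreL, WT LZ and SKO LZ it reached 467, 516 and 567. *Sox9* stood at 7.73 RPM per kilobase in WT LZ and at 9.55 in SKO LZ, and *Wt1* at 5.73 and 6.87, while *Fshr* and *Gata4* lay between 0.92 and 1.86 there. Without *Ctsl*, the summed level of the other 9 genes was 27.0 to 50.5 RPM in WT SPG, 55.5 to 102 RPM in SKO SPG and 92.0 to 113 RPM in WT PreL. It was 1017, 1268 and 84.9 RPM in SKO PreL, 1598 and 349 RPM in WT LZ, and 623 to 889 RPM in SKO LZ.

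Promoter sequences were at hand for 4 of the 10 genes (*Cst12*, *Ctsl*, *Fshr* and *Inhbb*, RefSeq, GRCm38.p6), each from 250 bases before to 50 after the start site. The palindromic E-box CACGTG, which reads the same on both strands, was searched because a proximal E-box is a known element of the *Fshr* promoter. It was found in 2 of the 4 genes. The match in *Fshr* was the reason for the search, which leaves *Ctsl* as the only match not chosen beforehand. The motif was held by 7.2% of the 32851 promoters of the table, and so few genes cannot be set against this share. The windows below hold it in capitals, at 61 bases before the start of *Fshr* (chr17:89200719-89200748, minus strand) and at 236 bases before the RefSeq start of *Ctsl* (chr13:64370739-64370768, minus strand), 5′ to 3′. The *Ctsl* window lies inside the gene span given above, which runs to 64370890. A match describes the letters and is not a site of binding.
Fshr: cctttagtgggtCACGTGactttgctgtcc
Ctsl: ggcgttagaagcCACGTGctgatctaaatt

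To ask whether the genotypes differed, the values were rescaled by size factors and tested with limma on log2(value + 10), which understates the change of genes with low values. A gene was called at a Benjamini-Hochberg adjusted p under 0.05 over all genes tested and an absolute log2 fold change above 1.

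In SPG, *Clu* and *Trf* were higher in SKO than in WT. Of the 10 genes, 6 passed the minimum of 10 reads on average (*Sox9*, *Wt1*, *Clu*, *Cst12*, *Ctsl* and *Trf*), and 2 were called higher and 0 lower, against 3.95% of all genes called higher and 2.06% lower. *Clu* rose by a log2 fold change of 1.44 ± 0.28 (SE, limma adjusted p = 0.00614) and *Trf* by 3.06 ± 0.53 (adjusted p = 0.0028), each with 3 of 3 SKO libraries above all WT libraries, a separation seen for 2 of these 6 genes and for 15.2% of all genes. The value for *Sox9* was -0.23 (95% interval -1.60 to 1.13) and that for *Wt1* 0.50 (-1.07 to 2.08), with adjusted p of 0.861 and 0.723. The median over the 6 genes was 0.34, against 0.0014 over all 12846 genes tested.

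Markers of other somatic cells moved with *Clu* and *Trf* in SPG. The 7 Leydig cell genes summed to 5.61 to 15.5 RPM in WT SPG and to 62.5 to 225 RPM in SKO SPG, and 5 of the 7 were called higher in SKO. The 6 macrophage genes summed to 6.82 to 13.6 RPM in WT and 55.2 to 121 RPM in SKO, with 4 of 6 called higher. The 6 peritubular myoid genes summed to 2.33 to 5.15 RPM in WT and 49.3 to 85.1 RPM in SKO, with 3 of the 4 tested called higher. In WT SPG, from 2 to 4 of the Leydig genes were at 0 reads, and in SKO SPG none was. *Cyp17a1*, *Lyz2* and *Myl9* held the most reads of these 3 lists. Their part in the values of *Clu* and *Trf* was not tested. Of 30 further Sertoli genes chosen as a second list, 17 were tested in SPG and 1 was called higher, *Vim*, named after its values were seen, a filament protein that many somatic cells make.

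**Figure D2:**
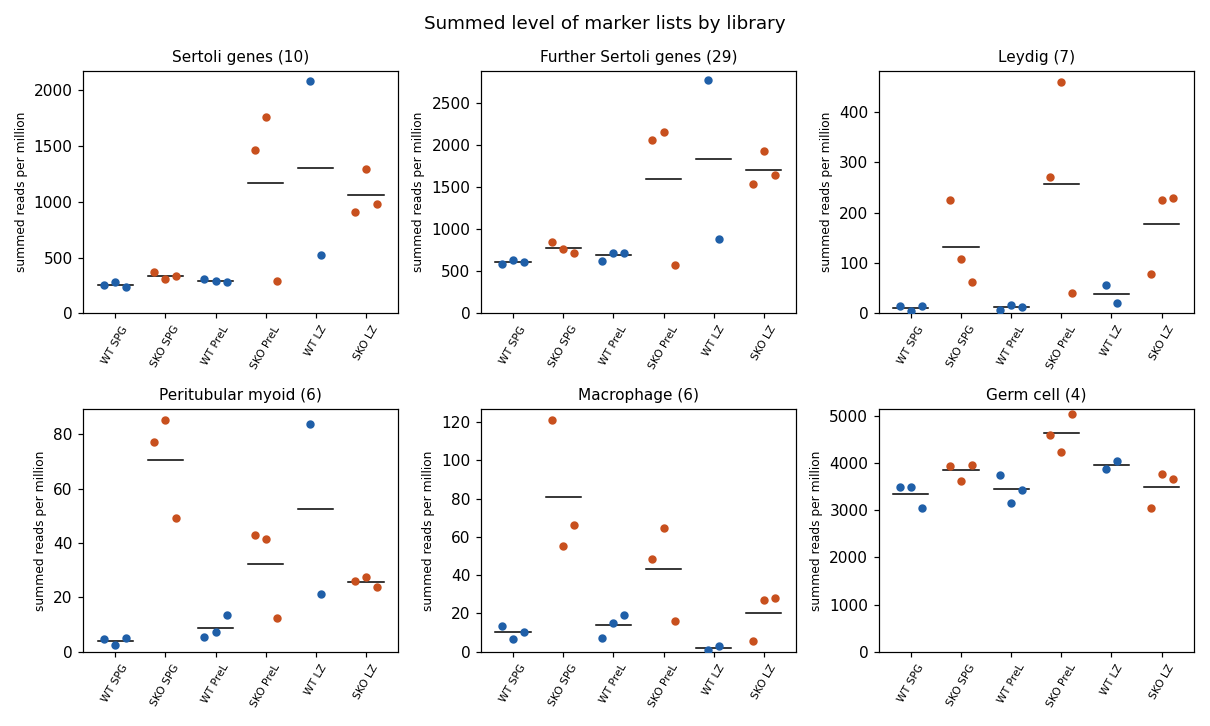
Summed RPM (y axis, from 0) of the 10 Sertoli genes, 29 further Sertoli genes and 4 other marker lists in the 17 libraries by group (x axis), with WT in blue, SKO in orange and a black line at the group mean. The Leydig, peritubular myoid and macrophage lists are higher in every SKO SPG library than in the WT SPG libraries, while the Sertoli lists are highest in WT LZ replicate 2 and SKO PreL replicates 1 and 2.

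In PreL, *Sox9*, *Wt1*, *Gata4* and *Trf* were higher in SKO. All genes but *Amh* passed the read minimum, and 4 of 9 were called higher and 0 lower, against 5.32% of all genes called higher and 5.83% lower. *Sox9* rose by 2.88 ± 0.79 on the log2 scale (SE, limma adjusted p = 0.0349), *Wt1* by 2.21 ± 0.61 (adjusted p = 0.0365), *Gata4* by 2.32 ± 0.59 (adjusted p = 0.0263) and *Trf* by 3.22 ± 0.67 (adjusted p = 0.0121). Only *Gata4*, *Trf* and *Ctsl* had every SKO library above every WT library, 3 of 9 against 17.4% of all genes. *Clu* (2.2, 95% interval 0.36 to 4.05, adjusted p = 0.0929) and *Cst12* (1.88, -0.02 to 3.78, adjusted p = 0.152) had fitted values of like size but did not pass. *Ctsl* reached an adjusted p of 0.0434 at a log2 fold change of 0.84, under the fold threshold. The median over the 9 genes was 2.2, against 0.0365 over all 13132 genes.

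These calls depended on single libraries. Without SKO PreL replicate 3, all 9 genes tested were called higher, with *Clu* at 3.45 (limma adjusted p = 1.01e-05), *Cst12* at 3.15 (adjusted p = 5.22e-05) and *Ctsl* at 1.18 (adjusted p = 0.00061), against 8% of all genes called higher and 5.36% lower. With SKO PreL replicate 1 left out, 0 were called, against 5.28% of all genes called in either direction. Without WT PreL replicate 2, 0 were called as well, against 3.22% of all genes called higher. Without SKO PreL replicate 2 1 was called, against 2.13% of all genes. Without WT PreL replicate 1 or 4 2 were called, against 4.24% and 4.14% of all genes. Without SKO PreL replicate 1, *Sox9* stood at 2.38 (adjusted p = 0.126) and *Trf* at 2.58 (adjusted p = 0.0536).

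The 2 high SKO PreL libraries differed little from each other and much from the third. Replicate 1 over replicate 3 gave ratios of RPM from 2.14 for *Ctsl* to 14.4 for *Cst12*, with 9.10 for *Sox9*, 5.14 for *Wt1*, 12.8 for *Clu* and 9.48 for *Trf*, and a median of 8.65 over the 8 genes with more than 3 reads in both libraries. Over all 12442 genes with more than 3 reads in both, the median ratio was 1.05. Replicate 1 over replicate 2 had a median of 0.840 over 9 genes, from 0.649 for *Inhbb* to 1.60 for *Trf*. The 7 Leydig genes summed to 271, 459 and 40.4 RPM in the 3 SKO PreL libraries, the 6 macrophage genes to 48.6, 64.8 and 16.1 RPM and the 6 peritubular myoid genes to 42.8, 41.5 and 12.4 RPM. In WT PreL, these lists lay between 6.25 and 17.7, between 7.37 and 19.2, and between 5.60 and 13.5 RPM. Replicate 3 was the lowest SKO PreL library for each of these lists. In SKO PreL, 6 of the 7 Leydig genes were called higher than in WT, and the part of these lists in the Sertoli values was not tested.

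Of the 30 further Sertoli genes, 25 were tested in PreL, and 8 were called higher and 0 lower, against 5.32% of all genes called higher and 5.83% lower. This became 17 of 24 higher without SKO PreL replicate 3, against 8% of all genes. It became 1 of 24 without SKO PreL replicate 1, against 1.38% of all genes. The 3 with the largest log2 fold changes were *Nr0b1*, a nuclear receptor, at 3.04 ± 0.73 (SE, limma adjusted p = 0.0216), *Shbg*, which encodes a sex steroid carrier, at 3.00 ± 0.83 (adjusted p = 0.0361), and *Inha*, the inhibin alpha subunit, at 2.61 ± 0.74 (adjusted p = 0.0386). *Inha* stood at 52.7, 68.1 and 5.68 RPM in SKO PreL and from 2.89 to 4.73 RPM in WT PreL, so that replicate 3 was again the lowest of SKO yet above WT.

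**Figure D3:**
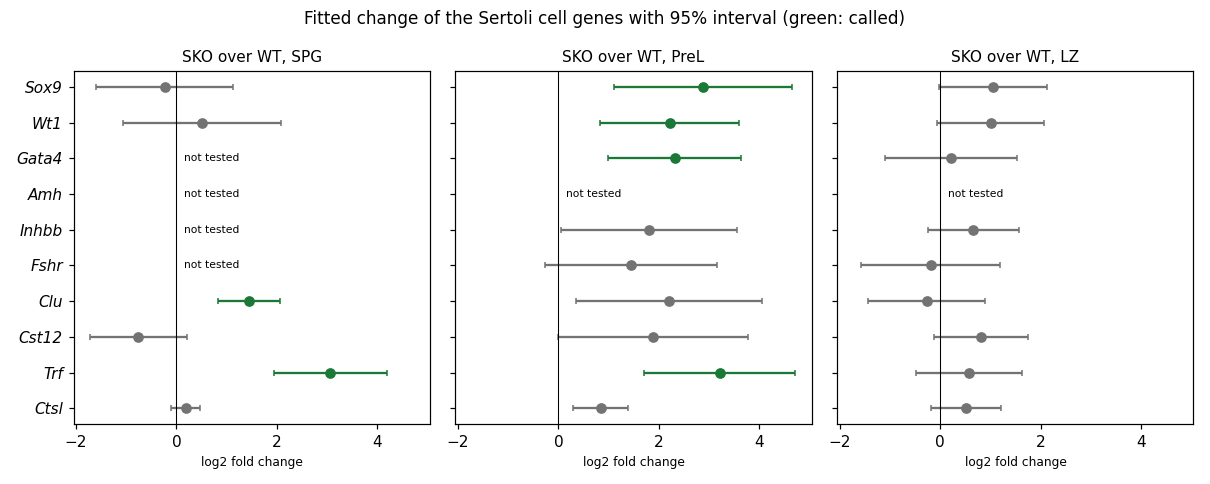
Fitted log2 fold change of SKO over WT (x axis) with its 95% interval for each Sertoli gene (y axis) in SPG, PreL and LZ, with called genes in green, other tested genes in grey and genes under the read minimum marked as not tested. *Trf* and *Clu* are called in SPG, *Sox9*, *Wt1*, *Gata4* and *Trf* in PreL, and 0 of 9 in LZ.

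In LZ, no Sertoli gene was called. Of 9 genes tested with limma, 0 passed, and 0 had an unadjusted p under 0.05, while 13.4% of all genes were called higher and 25.8% lower, and edgeR and DESeq2 each called 0. *Sox9* had a log2 fold change of 1.05 (95% interval -0.02 to 2.12, limma adjusted p = 0.0928), *Wt1* of 1.0 (-0.06 to 2.06, adjusted p = 0.104) and *Clu* of -0.27 (-1.43 to 0.88, adjusted p = 0.67). These intervals are wide, and a p that misses the threshold does not show that the genotypes were alike. The median over the 9 genes was 0.57, against -0.13 over all 13724 genes. WT LZ replicate 2 exceeded replicate 3 by 1.80 times for *Trf* to 5.31 times for *Fshr*, with a median of 4.55 over 9 genes, against 1.15 over all 13224 genes with more than 3 reads in both libraries.

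With 1 WT LZ library left out, the lone other library is assumed to vary like the SKO libraries. Without WT LZ replicate 2, 6 genes were called higher in SKO, *Sox9* at 1.90 (limma adjusted p = 0.00867), *Wt1* at 1.85 (adjusted p = 0.00867), *Cst12* at 1.56, *Ctsl* at 1.01, *Gata4* at 1.12 and *Inhbb* at 1.25, against 15.3% of all genes called higher and 26.1% lower. Without WT LZ replicate 3, *Clu* alone was called, and lower, at -1.27 (adjusted p = 0.0285), while *Sox9* stood at 0.15 and *Cst12* at 0.01, against 10.6% of all genes called higher and 17.7% lower. Of the 30 further Sertoli genes, 25 were tested in LZ, and 6 were called higher and 3 lower with both WT libraries in. Without WT LZ replicate 2, 11 of 24 were called higher and 2 lower, and without WT LZ replicate 3, 2 of 25 higher and 4 lower. *Dmrt1*, which spermatogonia express as well, held the most reads of that list. The Leydig genes summed to 79.1 to 230 RPM in SKO LZ and 20.9 to 57.3 RPM in WT LZ, the macrophage genes to 5.51 to 27.9 and 0.941 to 3.00 RPM, and the peritubular myoid genes to 23.8 to 27.3 and 21.3 to 83.6 RPM. Their part in the Sertoli values was not tested.

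Within LZ, the make-up of the Sertoli genes was compared relative to *Sox9* and *Wt1*, a ratio chosen after the values were seen. For each read of *Sox9* plus *Wt1*, there were 8.17 and 7.17 reads of *Clu* in the WT LZ libraries and 2.60, 3.53 and 3.25 in the SKO LZ libraries. The SKO ratio was 0.405 times the WT ratio by geometric means, without overlap (exact permutation test, two-sided p = 0.2, which no arrangement of 2 and 3 libraries can undercut, and 0.35 after Benjamini-Hochberg adjustment over 7 genes). *Fshr* (0.431 times), *Gata4* (0.577 times) and *Ctsl* (0.70 times) were also lower in all SKO LZ libraries, with the same p. For *Ctsl*, SKO LZ replicate 2 at 4.27 lay just under WT LZ replicate 2 at 4.32, and WT LZ replicate 3 stood at 7.16. Its ratio was 17.3 and 17.5 in WT PreL replicates 2 and 4 and 15.5 in SKO PreL replicate 3. Those libraries held few *Sox9* and *Wt1* reads, so the ratio for *Ctsl* also follows its denominator. *Cst12* (0.859 times), *Inhbb* (0.778 times) and *Trf* (0.739 times) overlapped. The 2 WT LZ libraries, which differ severalfold in summed level, thus lay near each other in *Clu* per *Sox9* plus *Wt1* read. In PreL, the same ratio for *Clu* was 5.34, 6.94 and 2.76 in SKO and 4.19 and 4.11 in the 2 WT libraries with at least 100 such reads.

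The stages were compared in 1 limma fit of all 17 libraries. In WT, the Sertoli genes rose from PreL to LZ. All but *Ctsl* of the 9 tested were called higher, 8 of 9 against 22.3% of all genes called higher, with a median log2 fold change of 2.46 against 0.22 over all 13530 genes. *Sox9* rose by 3.12 ± 0.84 (SE, limma adjusted p = 0.00565), *Clu* by 3.08 ± 0.74 (adjusted p = 0.0026) and *Gata4* by 2.63 ± 0.66 (adjusted p = 0.00361), and the 2 LZ libraries lay above all PreL libraries for these 8 genes, as they did for 36.9% of all genes. Without WT LZ replicate 2, 0 of 9 were called, against 19.7% of all genes called higher, and *Clu* stood at 2.08 (adjusted p = 0.077) and *Sox9* at 2.22 (adjusted p = 0.106). Without WT PreL replicate 4, 5 were called, against 19.1% of all genes called higher. Of the further Sertoli genes, 18 of 25 tested were called higher and 0 lower, but without WT LZ replicate 2, 4 of 24 were called higher and 1 lower. The peritubular myoid genes summed to 5.60 to 13.5 RPM in WT PreL and 21.3 to 83.6 RPM in WT LZ, and the Leydig genes to 6.25 to 17.7 and 20.9 to 57.3 RPM, and their part was not tested.

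From SPG to PreL in WT, only *Wt1* passed among 9 genes, at 2.86 ± 0.75 (SE, limma adjusted p = 0.0213), against 3.57% of all genes called higher. Without WT SPG replicate 1 or 3, 0 passed, against 3.42% and 2.33% of all genes called higher. Without WT PreL replicate 2 or 4, 0 passed, against 1.75% and 3.1% of all genes. *Clu*, *Cst12* and *Inhbb* had all PreL libraries above all SPG libraries too, which makes 4 of 9 with *Wt1*, against 16.7% of all genes.

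In SKO, 4 Sertoli genes rose between SPG and PreL. *Sox9* (3.69 ± 0.75, SE, limma adjusted p = 0.00587), *Wt1* (4.53 ± 0.75, adjusted p = 0.00124), *Cst12* (4.77 ± 0.68, adjusted p = 0.000455) and *Inhbb* (3.45 ± 0.70, adjusted p = 0.00574) were called, 4 of 9 against 3.06% of all genes called higher. *Fshr* was not called (limma adjusted p = 0.0575), with 0 reads in all SKO SPG libraries and 36, 43 and 1 reads in SKO PreL. Of the further Sertoli genes, 13 of 25 were called higher and 0 lower. Without SKO PreL replicate 1, 6 of 25 were called higher, against 1.24% of all genes, and without replicate 3, 16 of 25, against 3.61%. *Trf* stood at 0.14 (adjusted p = 0.928). From PreL to LZ in SKO, limma called 0 of 9, with 1 gene (*Cst12*) at an unadjusted p under 0.05, against 8.22% of all genes called higher and 5.05% lower, and edgeR and DESeq2 called 0. Without SKO PreL replicate 3, 7 of 9 genes were called higher between SPG and PreL, against 3.61% of all genes, and 1 was called lower between PreL and LZ, against 3.71% of all genes. Of the further Sertoli genes, 1 of 25 was called higher between PreL and LZ. Without SKO PreL replicate 3 it was 0 of 25, against 6.71% of all genes.

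The difference between genotypes was then compared between stages by an interaction term in the same fit. Between SPG and PreL, limma called 0 of 9 genes (3 at an unadjusted p under 0.05), against 0.362% of all genes called in either direction, with edgeR calling 0 and DESeq2 calling 1, and without SKO PreL replicate 3 limma called 2, against 0.575% of all genes. Between PreL and LZ, 1 of 9 was called, against 38.2% of all genes called in either direction and 23.1% called lower. It was *Trf*, whose genotype difference was smaller in LZ by 2.69 ± 0.92 on the log2 scale (SE, limma adjusted p = 0.0263). *Clu* had -2.46 (adjusted p = 0.0591) and *Gata4* -2.19 (adjusted p = 0.0597). Of the 25 further Sertoli genes tested, 0 were called between SPG and PreL, and 3 without SKO PreL replicate 3. Between PreL and LZ, 2 of the 25 were called higher and 8 lower, and 2 higher and 16 lower without that library. Without SKO PreL replicate 3, 6 of 9 were called lower, against 22.6% of all genes, and without SKO PreL replicate 1 or 2, WT PreL replicate 2, WT LZ replicate 2 or SKO LZ replicate 1, 0 were called.

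Finally, it was asked whether the genes deviate together between replicates. Group means were subtracted from log2(RPM + 1) in all 17 libraries, and Pearson's r was computed as a description for the 36 pairs of the 9 genes other than *Amh*. The libraries share their depth and their group structure, so no test is given. The median r was 0.776, from 0.284 for *Wt1* and *Trf* to 0.920 for *Clu* and *Cst12*, and 34 of the 36 pairs had an r above 0.5. *Clu* followed the mean of the other genes most closely (r = 0.975), and *Trf* least (r = 0.673). Without SKO PreL replicate 3, the median r over the pairs was 0.516, and over all 17 single libraries left out it ran from 0.516 to 0.825.

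Against the mean of the 9 genes, the further Sertoli genes had a median r of 0.789 (25 genes, from 0.238 for *Cdh2* to 0.943 for *Rhox8*), and all 13530 genes had a median of 0.175, with 19.2% above 0.5. These medians were 0.63 and 0.195 without SKO PreL replicate 3. Among other genes averaging 100 reads or more, the 5 whose pattern was most like it were *Ttyh1* (r = 0.985), *Aldoa* (0.975), *Hspb1* (0.973), *Kif21a* (0.949) and *Rhox8* (0.943), and without SKO PreL replicate 3 the r of these 5 ran from 0.806 to 0.949. *Hspb1*, a small heat shock protein gene, stood at 22.0, 29.6 and 2.67 RPM in SKO PreL, at 47.2 and 12.3 RPM in WT LZ and from 1.21 to 2.36 RPM in WT PreL. *Aldoa*, a glycolytic enzyme gene, stood at 75.2, 92.1 and 25.8 RPM in SKO PreL and at 165 and 73.2 RPM in WT LZ. Both had the same low library in SKO PreL and the same high library in WT LZ as *Sox9* and *Clu*. Genes chosen by this r were bound to share much of this pattern, so it is no separate result.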

How the data were processed

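RNA was measured in 17 libraries of sorted SPG, PreL and LZ cells from WT and SKO mice, made with Smart-seq2. The authors mapped reads to mm10, counted unique reads per gene with HTSeq 0.11.2 and deposited signal values. These are counts multiplied by 1 factor per library, which was derived from the ERCC spike-in RNA and calibrated to cell input. The submitters' processing notes also name TopHat2 2.1.1, Cufflinks 2.2.1, DESeq2 and both mm9 and mm10.

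Dividing each library's values by its smallest one gave whole numbers (within 0.01 for 100% of values), used as the recovered reads. For each comparison, size factors (median of ratios, over the whole table) rescaled the values. Genes averaging 10 or more recovered reads entered the test, which was limma 3.58.1 (trend, R 4.3.3) on log2(value + 10) with Benjamini-Hochberg adjustment, since the deposited values are not whole counts. Alternatives were edgeR 4.0.16, DESeq2 1.42.0, TMM, unscaled values, pseudocounts of 1 and 50, a read minimum of 50 or none, a replicate block, no fold threshold, 1 fit of all libraries and each library left out. Leaving out libraries in the correlations between genes and in the counts of further Sertoli genes was chosen after seeing the data. The test was checked on counts simulated with the same spread for every gene and no difference in cell content between replicates. That check does not cover genes that differ widely between replicates, as the Sertoli genes do here. Positions and exon lengths came from GENCODE for GRCm38.

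The 10 genes and all lists were chosen with earlier results of these data known. Named genes are the 10 members, the 3 further Sertoli genes with the largest fold change among those called between genotypes, the 5 genes most like the members, *Nat10* and the gene with the most reads in each other list used. *Rhox5*, of the further list, was not analysed here. Endothelial genes summed to at most 8.44 RPM in any library. This was in SKO PreL replicate 3, against 4.99 and 4.61 RPM in SKO PreL replicates 1 and 2, unlike the other somatic lists.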

Additional observations from a re-analysis of the deposited data

Results flagged for a closer look

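The genotype difference of *Trf* differed between PreL and LZ by an interaction test. The log2 difference of SKO against WT was smaller in LZ than in PreL by a value of -2.69 (limma adjusted p = 0.0263, Benjamini-Hochberg adjustment over 13530 genes). *Trf* stood at 33.7, 21.0 and 3.55 RPM in SKO PreL and at 1.21, 0.662 and 1.12 RPM in WT PreL, against 2.92 to 7.51 RPM in SKO LZ and 5.93 and 3.29 RPM in WT LZ. Leaving out SKO PreL replicate 1 or 2, WT PreL replicate 2, WT LZ replicate 2 or 3, or SKO LZ replicate 1 gave an adjusted p above 0.05.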

How the results depend on the processing

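Counts of called Sertoli genes changed with the scaling, the filter and the tool. In PreL, SKO against WT gave 4 genes, but 8 with ERCC-calibrated values not rescaled, 2 with no filter, 7 with DESeq2 and 9 with a replicate block. Of all genes, 1437 were called with no filter, 1793 with DESeq2 and 2144 with the block, in place of 1464. In that block, SKO PreL replicate 3 and WT PreL replicate 4 had no same-numbered partner. Each was fitted by its own term and did not enter the genotype contrast. Leaving out SKO PreL replicate 3 alone also gave 9. In SPG, 1 fit of all 17 libraries gave 1 in place of 2, with 1206 of all genes called in place of 773. From SPG to PreL, 1 gene in WT became 0 at a pseudocount of 50, 0 with no filter and 3 with DESeq2, and 4 genes in SKO became 8 with ERCC-calibrated values. Of all genes in WT, 584 were called at a pseudocount of 50, 500 with no filter and 836 with DESeq2, in place of 721. From PreL to LZ, ERCC-calibrated values gave 5 in SKO in place of 0, and the replicate block gave 5 in WT in place of 8. The block called 2767 of all genes in WT in place of 3913. For the genotype effect, SPG to PreL gave 3 with ERCC-calibrated values and 1 with DESeq2, and PreL to LZ gave 5 with ERCC-calibrated values, 0 with no filter, 2 with edgeR, 3 with DESeq2 and 2 with the replicate block. Of all genes, DESeq2 called 334 in place of 49 for SPG to PreL. For PreL to LZ, 5448 were called with no filter, 4412 with edgeR, 4793 with DESeq2 and 3725 with the block, in place of 5162. The cause of each of these changes was not tested. ERCC-calibrated values moved all genes too. The median log2 fold change of all genes was 0.729 in place of 0.037 for SKO against WT in PreL, 1.80 in place of 0.215 for LZ against PreL in WT and 0.984 in place of 0.020 for PreL against SPG in SKO. They called 4044 of all genes in place of 1464 for SKO against WT in PreL, 6077 in place of 541 from SPG to PreL in SKO, 4564 in place of 1795 from PreL to LZ in SKO, and 6085 in place of 49 and 7324 in place of 5162 for the genotype effects.

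Same-numbered libraries did not deviate together (correlations of deviations from -0.188 to 0.131), so the main fits did not pair them. With so few libraries per group, this cannot exclude that same-numbered libraries share an animal or a sort, and the labels do not say. In the 6 comparisons for which the block is not named above, it left the count as it was.

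With each replicate left out in turn, counts ran from 2 to 2 in SPG, 0 to 9 in PreL and 0 to 6 in LZ for SKO against WT, from 0 to 1 in WT and 4 to 7 in SKO between SPG and PreL, from 0 to 8 in WT and 0 to 1 in SKO between PreL and LZ, and from 0 to 2 and 0 to 6 for the genotype effects. The summed level, SKO over WT, ran from 1.24 to 1.38 in SPG (1.31 with all), from 2.98 to 5.47 in PreL (3.98) and from 0.510 to 2.02 in LZ (0.814). With ERCC-calibrated values it was 1.07, 6.53 and 1.02 in SPG, PreL and LZ, and without *Ctsl* 2.32, 7.55 and 0.757. The median r over pairs was 0.845 in SKO libraries and 0.685 in WT libraries, and 0.516 to 0.825 with single libraries left out. Of 1315 gene-level alternatives, 1146 kept direction and side of the threshold and 0 reversed a called direction. Depth limits the low genes: *Wt1* had at most 52 reads and *Fshr* at most 10 in an SPG library.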
